A study of Mus musculus with 6 samples.

Results

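A set of 10 genes taken to mark the T cells of the intestinal epithelium was examined in mice that lack alkaline sphingomyelinase (alk-SMase) and in wild type mice. The set was listed by symbol, namely Cd3e, Cd3d, Cd3g, Cd8a, Cd8b1, Gzma, Gzmb, Itgae, Cd7 and Ccl5, and 9 of the 10 could be found among the 22700 rows of the expression table. Cd8b1 could not be placed on a row and was not analysed here. All 9 genes had higher FPKM in every knockout (KO) library than in every wild type (WT) library, with group means 1.67 to 2.16 times as high in KO mice. None of the 9 passed the adjusted threshold when all 6 libraries were used.

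RNA came from the mucosa of the middle small intestine, with 1 library per mouse and all mice of the C57BL/6 strain. The KO libraries are K79S, K82S and K86S (n = 3). The WT libraries are W83S, W89S and W90S (n = 3). Values of single libraries are given in this order throughout. The KO mice had lost exon 2 of Enpp7, the gene of the enzyme, through Cre recombinase and loxP sites. Neither the promoter that drove Cre nor the age and sex of the mice is given in the sources used here. Alk-SMase splits sphingomyelin into ceramide on the surface of the gut epithelium, and the study asked which other genes differ when it is missing.

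The lining of the small intestine holds many T cells that sit between the epithelial cells. Most carry CD8 and many hold granules of killing enzymes. Some bear an alpha beta and others a gamma delta T cell receptor. Whatever the receptor, its signal reaches the cell through the CD3 subunits. These cells are held in the epithelium by the integrin CD103, which binds E-cadherin on enterocytes. In a bulk mucosal sample, fewer cells of a type and less RNA per cell cannot be told apart, so each value below is a level of RNA in the tissue and not a number of T cells. Nor can RNA of T cells in the epithelium be told from that of other lymphocytes in the mucosa.

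Expression was given as FPKM, a level scaled to transcript length and to the mapped reads of the library, so levels can be set beside each other between genes. The libraries had 20061 to 21679 rows above 0. Summed FPKM was 393152, 465901 and 421135 in KO and 483474, 495362 and 473383 in WT. Every KO sum was thus below every WT sum, and scalings that change this are given at the end. The values carry no count of the reads behind them, so no counting interval is given. In the deposited table gene identifiers stood beside the values of other genes. Rows were named here by matching the rank orders of the identifiers and of the rows, which gave names to 12345 rows, all at 0.954 FPKM or more in W83S. Several features of the libraries bear on all that follows. Enpp7 was 605, 129 and 669.7 FPKM in KO and 406, 667 and 495 in WT, so the level of the whole gene did not separate the genotypes and cannot check the loss of 1 exon. Summed gastric and pancreatic markers reached 25962 FPKM in W83S and 1.08 to 5.55 FPKM in the other 5 libraries. In K79S the Y-linked gene Eif2s3y was listed at 0 and Ddx3y at 0.0279 FPKM, against at least 5.69 and 2.93 FPKM in every other library. Summed B cell markers reached 61.3 FPKM in K82S, against 4.59 and 6.53 FPKM in the other KO libraries. In WT they were 5.86, 23.2 and 42.7 FPKM. K82S stood apart within its group, so values without K82S are given beside the main results. The KO libraries that remain are both low in B cell markers, while W89S and W90S are not. Leaving out each of the other libraries is summarised at the end.

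The 3 CD3 genes lie side by side on chromosome 9 within 40056 bp of the mm10 genome (GRCm38, GENCODE M21 annotation). Cd3e runs on the minus strand from 44998740 to 45009627, Cd3d on the plus strand from 44981786 to 44987339 and Cd3g on the minus strand from 44969572 to 44980431. The starts of Cd3d and Cd3g are 1355 bp apart and point away from each other. Cd8a lies on chromosome 6 from 71373427 to 71379173 on the plus strand, and Cd8b1 on the same strand from 71322788 to 71337494. Gzma is on chromosome 13 from 113093825 to 113100981 and Gzmb on chromosome 14 from 56258838 to 56262260, both on the minus strand. Itgae is on chromosome 11 from 73090583 to 73147446 on the plus strand. The same chromosome holds Ccl5 from 83525778 to 83530518 and Cd7 from 121036747 to 121039418, both on the minus strand.

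Upstream sequences are shown for the CD3 cluster and for both granzymes, because these 5 promoters belong to the receptor complex and the killing enzymes whose levels are compared below. Each is the 200 bases before the RefSeq start in GRCm38.p6, 5′ to 3′ on the strand of the gene, and 6 of the 10 genes had a RefSeq promoter. Capitals mark the letters of core motifs of 3 factor families that T cells use, read on either strand. These are TGTGGT for RUNX, AGGAAG for ETS and CACCTG for the E-box.
Cd3e (chr9:45009612-45009811, minus strand): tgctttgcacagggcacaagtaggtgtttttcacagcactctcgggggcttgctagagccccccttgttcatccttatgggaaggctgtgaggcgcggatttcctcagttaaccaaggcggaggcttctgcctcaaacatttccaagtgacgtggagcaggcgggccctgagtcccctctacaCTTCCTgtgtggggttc
Cd3d (chr9:44981586-44981785, plus strand): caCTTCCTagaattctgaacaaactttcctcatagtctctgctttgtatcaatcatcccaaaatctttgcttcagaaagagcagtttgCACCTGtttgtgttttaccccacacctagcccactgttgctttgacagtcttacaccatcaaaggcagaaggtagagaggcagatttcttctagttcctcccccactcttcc
Cd3g (chr9:44980432-44980631, minus strand): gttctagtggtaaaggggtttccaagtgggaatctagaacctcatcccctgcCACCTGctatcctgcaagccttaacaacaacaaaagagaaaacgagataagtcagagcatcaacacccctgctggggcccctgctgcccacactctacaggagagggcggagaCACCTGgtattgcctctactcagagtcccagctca
Gzma (chr13:113100982-113101181, minus strand): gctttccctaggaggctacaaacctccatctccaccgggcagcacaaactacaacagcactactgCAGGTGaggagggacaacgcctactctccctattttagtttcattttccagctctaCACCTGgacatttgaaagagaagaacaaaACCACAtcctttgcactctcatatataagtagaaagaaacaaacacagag
Gzmb (chr14:56262335-56262534, minus strand): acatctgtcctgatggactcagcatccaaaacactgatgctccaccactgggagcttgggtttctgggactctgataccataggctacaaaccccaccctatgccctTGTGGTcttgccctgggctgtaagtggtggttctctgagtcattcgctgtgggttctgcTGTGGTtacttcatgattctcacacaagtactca

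The RUNX letters stood in 2 of the 6 promoters, 1 time in Gzma and 2 times in Gzmb, and in 11.2% of 32851 mouse promoters of this length. The E-box letters were found in 3 of 6 (Cd3d, Cd3g and Gzma) and in 13.9% of all promoters. The ETS letters were found in 2 of 6 (Cd3d and Cd3e) and in 24.7% of all. Cd8a had none of these 3 motifs in this window. TCF/LEF letters (CTTTGAA) were in none of the 6 and in 3.4% of all promoters, and NFAT letters (GGAAAA) were in Gzma alone and in 16.4% of all. A match of letters is a description and not a bound site. The RefSeq start of Gzmb lies upstream of the start that GENCODE gives. For Cd3e the RefSeq start lies downstream of the GENCODE start at 45009627. The last bases of the Cd3e window, with most of its marked ETS letters, are therefore inside the GENCODE gene.

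Cd3e encodes the epsilon subunit of the CD3 complex, which every T cell receptor needs to reach the cell surface. Its FPKM was 4.83, 6.11 and 4.44 in KO and 2.71, 2.60 and 2.22 in WT. The groups stood well apart, and the lowest KO library was 1.64 times the highest WT library. The KO mean was 5.13 ± 0.876 FPKM and the WT mean 2.51 ± 0.257 FPKM (SD, n = 3 each), a ratio of 2.04.

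Cd3d encodes the delta subunit and was the least abundant of the 9 genes. Its FPKM was 2.58, 4.04 and 2.32 in KO and 2.24, 1.25 and 1.73 in WT. The groups only just failed to meet, since K86S was 1.03 times W83S. Cd3g encodes the gamma subunit, with 4.85, 7.53 and 5.06 FPKM in KO and 3.64, 3.20 and 3.61 in WT. The WT libraries were close together for Cd3g and K82S was far above the other KO libraries. Group means were 2.98 ± 0.924 against 1.74 ± 0.495 FPKM for Cd3d and 5.81 ± 1.49 against 3.48 ± 0.247 FPKM for Cd3g (SD, n = 3 each).

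Cd8a encodes the alpha chain of CD8, the co-receptor for MHC class I and, as a pair of alpha chains, a well known mark of gut epithelial T cells. Its FPKM was 7.04, 11.1 and 6.05 in KO and 5.44, 3.84 and 3.87 in WT. W83S was the highest WT library, and the lowest KO library was 1.11 times as high. The means were 8.05 ± 2.65 against 4.38 ± 0.918 FPKM (SD, n = 3 each).

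Gzma and Gzmb encode granzymes, the serine proteases that killer cells release into their targets. Gzma was the most abundant of the 9, with 98.8, 147 and 99.8 FPKM in KO and 76.2, 46.5 and 63.6 in WT. For Gzmb the values were 34.3, 39.3 and 35.5 FPKM in KO and 22.0, 11.7 and 18.2 in WT. The KO libraries were nearly level for Gzmb, with K82S 1.13 times the mean of the other KO libraries, while the WT libraries spread more widely. The means were 115 ± 27.6 against 62.1 ± 14.9 FPKM for Gzma and 36.4 ± 2.60 against 17.3 ± 5.18 FPKM for Gzmb (SD, n = 3 each), ratios of 1.86 and 2.11.

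Itgae encodes the alpha chain of CD103. Its FPKM was 5.35, 6.74 and 4.20 in KO and 2.51, 2.66 and 2.36 in WT. The WT libraries lay within a narrow band and all KO libraries were far above it, with a ratio of means of 2.16, the highest of the 9. The means were 5.43 ± 1.27 and 2.51 ± 0.151 FPKM (SD, n = 3 each).

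Cd7 encodes a surface glycoprotein of T cells and natural killer cells. It had 27.3, 36.3 and 23.3 FPKM in KO and 20.5, 11.7 and 13.9 in WT. Ccl5, a chemokine that draws further T cells and is stored by effector CD8 cells, had 58.1, 94.4 and 49.1 FPKM in KO and 38.2, 34.0 and 23.5 in WT. For both genes K82S was highest and W83S was the highest of the WT libraries, without overlap of the groups. The means were 29.0 ± 6.65 against 15.4 ± 4.58 FPKM for Cd7 and 67.2 ± 24.0 against 31.9 ± 7.56 FPKM for Ccl5 (SD, n = 3 each).

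**Figure D1:**
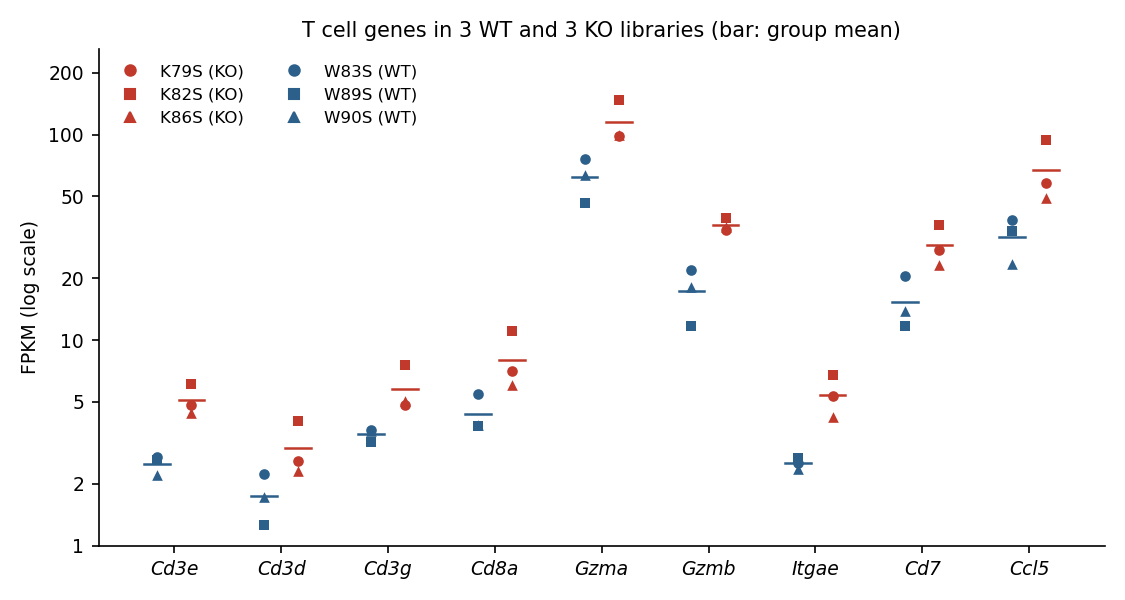
FPKM (log axis) of the 9 T cell genes in the 3 KO (red) and 3 WT (blue) libraries, 1 point per library, with a bar at the group mean. Every red point lies above every blue point of the same gene, and the red square (K82S) is the highest in all 9.

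Ordered by their mean level in WT mice, the genes ran from Gzma through Ccl5, Gzmb, Cd7, Cd8a, Cd3g, Itgae and Cd3e down to Cd3d. Among neighbours in that order, Gzmb and Cd7, Itgae and Cd3e, and Cd3e and Cd3d had overlapping WT values. In KO mice Gzmb and Cd7 again overlapped, as did Cd8a and Cd3g, Cd3g and Itgae, and Itgae and Cd3e. K82S was the highest library for 9 of 9 genes, at 1.13 to 1.76 times the mean of the other KO libraries. The lowest library was W89S for 6 genes and W90S for Cd3e, Itgae and Ccl5.

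The differences were tested in a limma fit across all 13089 rows that passed a filter on low values, on the log2(FPKM + 1) scale, where a fold change is understated for low genes. All 9 placed genes passed that filter, each with more than 1 FPKM in every library. With all 6 libraries, 9 of 9 had every KO library above every WT library, where 5.90% of all rows did. An unadjusted p under 0.05 with a higher KO mean was reached by 9 of 9 and by 2.87% of all rows. The call asked for an adjusted p under 0.05 (Benjamini-Hochberg over all rows) and a fold above 1.5 or below 2/3. By this call 0 of 9 passed, as did only 1 of all rows (0.00764%), although 1638 rows had an unadjusted p under 0.05. The exact two-sided permutation test gave p = 0.1 for each gene, the smallest that 3 against 3 libraries allow.

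The log2 fold changes of the 9 genes had a median of 0.855, with a range of 0.53 to 1.07, beside a median of -0.06 over all rows. Gzmb had the largest, at 1.07 (SE 0.24, 95% interval 0.51 to 1.64, limma adjusted p = 0.393). Cd3e had the smallest p of the 9, with a log2 fold change of 0.80 (SE 0.15, 95% interval 0.44 to 1.15, limma adjusted p = 0.393). At the other end Cd3d had 0.53 (SE 0.22, 95% interval 0.01 to 1.05, limma adjusted p = 0.393). The adjusted p was the same for all 9, because 1 value was shared along a long run of ranked rows. Of all 13089 rows, 511 had a log2 fold change above that of Cd3d.

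**Figure D2:**
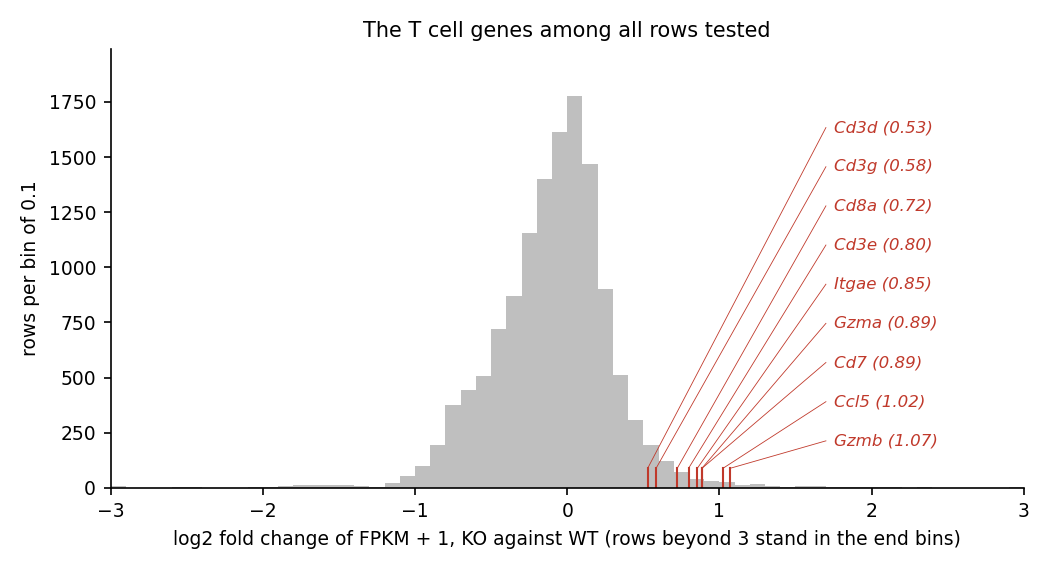
Histogram of the log2 fold change of FPKM + 1, KO against WT, of all 13089 rows tested (grey, rows per bin), with the 9 T cell genes marked in red and their values in brackets. The genes lie between 0.53 and 1.07, in the right shoulder of a distribution whose median is -0.06.

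Without K82S, all 9 genes again had every KO library above every WT library, where 11.9% of rows did. That count follows from the separation with all 6 libraries, since leaving out a library cannot create overlap, and is no further support. Cd3e (log2 fold change 0.69, adjusted p = 0.0367) and Itgae (0.71, adjusted p = 0.0398) then passed the limma call, which makes 2 of 9 against 0.400% of rows called higher. This fit called 1184 of 12764 rows, of which 1133 were lower in KO and 51 higher. The median log2 fold change of the 9 dropped to 0.70, beside -0.09 over all rows. Gzmb kept 1.02 (adjusted p = 0.0737), whereas Cd3d had 0.35 with a 95% interval of -0.12 to 0.82 (adjusted p = 0.314). The other 5 genes, Cd3g, Cd8a, Gzma, Cd7 and Ccl5, had values of 0.41 to 0.75 and adjusted p-values of 0.0943 to 0.150.

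**Figure D3:**
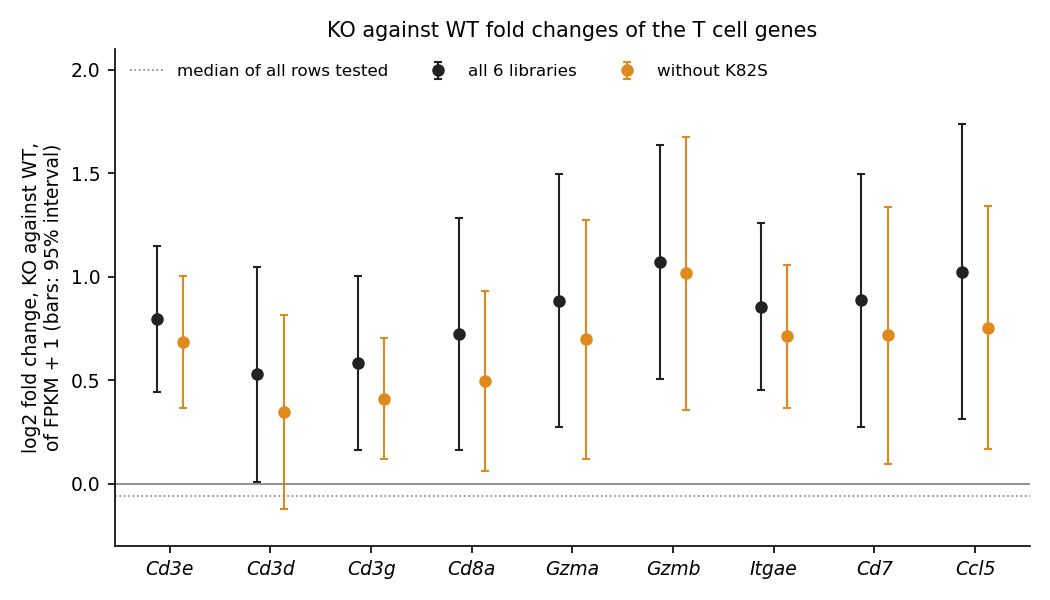
Log2 fold change of FPKM + 1, KO against WT, with 95% intervals from the limma fit, for all 6 libraries (black) and without K82S (orange). The dotted line is the median of all rows with 6 libraries. Only the interval of Cd3d without K82S includes 0.

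Leukocytes of other kinds also varied between the libraries. A list of 6 placed genes that all leukocytes share, among them Coro1a, Arhgdib and Laptm5, had sums of 39.0, 112 and 39.6 FPKM in KO. In WT the sums were 30.9, 51.6 and 65.6 FPKM. The summed markers of both B cell genes placed, Cd79a and Cd79b, were 4.59, 61.3 and 6.53 FPKM in KO and 5.86, 23.2 and 42.7 in WT. Neither sum separated the genotypes. When every library was scaled to the leukocyte genes, a scaling added after the data were seen, the log2 fold changes of the 9 genes stayed positive (0.31 to 0.79). However, 0 of 9 then had all KO libraries above all WT libraries, where 0.372% of rows did, and the limma adjusted p-values were 0.706 to 0.930. With the same scaling and without K82S, 4 of 9 did (Cd3e, Cd3g, Gzmb and Itgae) against 7.41% of rows. With scaling to epithelial genes 8 of 9 did, all but Cd3d, against 2.13% of rows. The part of other leukocytes in the differences of the T cell genes was not tested.

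The members could also differ from each other. The level of each was therefore divided by the geometric mean of Cd3e, Cd3d and Cd3g in the same library, which gives a measure per unit of CD3 RNA. On the log2 scale, with 1 added to each FPKM, Gzmb relative to CD3 was 2.83, 2.58 and 2.93 in KO and 2.59, 1.97 and 2.48 in WT. K82S lay just below W83S, so the groups overlapped. The difference between genotypes was 0.435 for Gzmb and 0.387 for Ccl5 (exact permutation p = 0.2 and adjusted p = 0.3 over 6 ratios for each). It was 0.248 for Gzma, 0.218 for Itgae and 0.249 for Cd7, with exact permutation p-values of 0.2, 0.2 and 0.3. Cd8a stood closest to CD3, with a difference of 0.086 (exact permutation p = 0.6). All 6 ratios overlapped between the groups, and 3 against 3 libraries cannot give a p below 0.1. Without K82S, Gzmb relative to CD3 lay wholly above WT, with a difference of 0.535 (exact permutation p = 0.2, the smallest for 2 against 3), and the other 5 ratios overlapped. The added 1 weighs most on the low CD3 genes. With 0.01 added in its place the differences were 0.063 for Gzma, 0.098 for Cd7, 0.013 for Cd8a, 0.214 for Ccl5, 0.286 for Gzmb and 0.252 for Itgae.

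Constant genes of the T cell receptor tell which receptor chains the RNA came from. All 7 on the list were placed and 0 of 7 passed with all 6 libraries. In all, 5 of 7 (Trbc1, Trbc2, Trdc, Tcrg-C2 and Tcrg-C4) had all KO libraries above all WT libraries, and the median log2 fold change of the 7 was 0.59. With all 6 libraries 5.90% of all rows did so. Trdc, the constant part of the delta chain, was 2.06, 1.37 and 2.01 FPKM in KO and 0.991, 0.747 and 0.829 in WT. Here K82S was the lowest KO library, unlike for the 9 genes above. Trdc was below 1 FPKM in all WT libraries and passed the filter only through the KO libraries, so its separation and its test are no support. The count of 5 of 7 includes Trdc, and the median of 0.59 is its own value. Trac, the constant part of the alpha chain, was 5.04, 11.8 and 4.40 FPKM in KO and 4.11, 4.71 and 4.95 in WT. K82S alone stood out for Trac, while K86S lay among the WT values and K79S just above them. Without K82S, Trdc met the limma call (log2 fold change 0.71, adjusted p = 0.0400). That call is again no support, since Trdc passed the filter only through the KO libraries. Trac had a log2 fold change of 0.03 without K82S (limma adjusted p = 0.903).

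The ratio of Trdc to Trac FPKM was 0.409 in K79S, 0.116 in K82S and 0.456 in K86S, against 0.241, 0.159 and 0.168 in WT. K82S was the lowest of the 6 libraries and the other KO libraries were the highest. For both beta chain genes K82S again stood out. Trbc2 was 8.96, 24.0 and 8.96 FPKM in KO and 7.59, 7.20 and 7.71 in WT, and Trbc1 was 4.63, 14.1 and 5.02 against 4.37, 4.42 and 4.54 FPKM. Among gamma chain genes Tcrg-C2 was 9.23, 10.4 and 6.38 FPKM in KO and 5.27, 4.10 and 5.05 in WT. Trbc1 and Trbc2 are near-identical copies, as are Tcrg-C1 and Tcrg-C2, so the split of reads within each pair is uncertain. Relative to the CD3 subunits all 7 receptor genes overlapped between the groups with 6 libraries (exact permutation p = 0.4 to 1.0, adjusted p = 1.0). Without K82S, a comparison added after the data were seen, 4 of the 7 no longer overlapped. The share of all rows whose ratio to CD3 does so was not computed, so this count is a description only. Trac, Trbc1 and Trbc2 were then wholly lower in KO, with differences on the log2 scale of -0.447, -0.385 and -0.252. Trdc was wholly higher, at 0.230 instead of -0.045 with all libraries. The exact permutation p was 0.2 for each, the smallest that 2 against 3 libraries allow, so these differences did not pass a test. The receptor ratios are given with 1 added to each FPKM only. That addition weighs heavily on Trdc, which was 0.747 to 2.06 FPKM. The size of its differences and the sign of -0.045 therefore cannot be relied on, nor can the sign of other differences near 0.

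**Figure D4:**
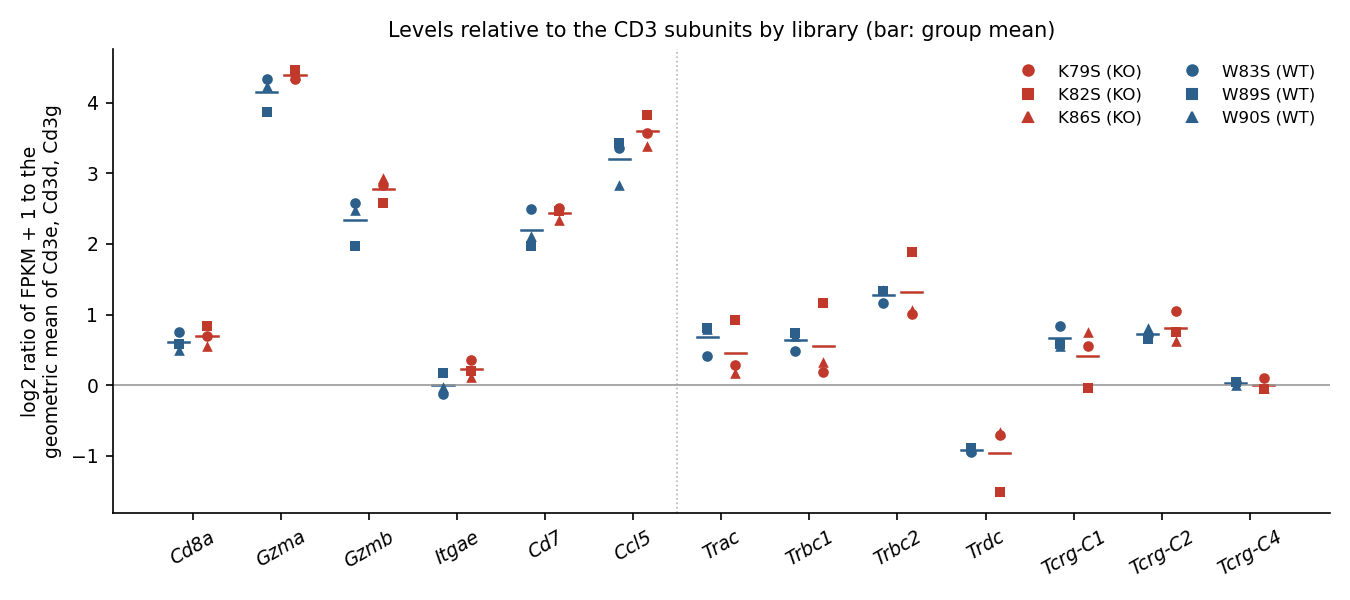
Log2 ratio of FPKM + 1 to the geometric mean of Cd3e, Cd3d and Cd3g in each KO (red) and WT (blue) library, with bars at the group means, for 6 of the T cell genes (left of the dotted line) and 7 receptor constant genes (right). With all 6 libraries the groups overlap for every gene, and the red square (K82S) is high for Trac, Trbc1 and Trbc2 and low for Trdc and Tcrg-C1.

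The list of receptor signalling and T cell surface genes had 20 members. Of these 5 were placed, and 0 of 5 passed with all 6 libraries. Lck, the kinase that CD8 brings to the receptor, was 5.37, 6.84 and 3.45 FPKM in KO and 2.88, 2.98 and 2.85 in WT. Zap70, the kinase that binds the phosphorylated CD3 chains, was 3.39, 4.65 and 2.08 against 2.02, 1.85 and 1.41 FPKM. Lck, Zap70 and Fyn did not overlap between the groups, while the adaptor Lat (2.16, 4.44 and 1.73 against 1.40, 1.71 and 1.82 FPKM) did, as did the surface receptor Cd96 (1.73, 3.30 and 0.657 against 1.42, 1.94 and 1.204 FPKM). That makes 3 of 5 without overlap, beside 5.90% of all rows. The median log2 fold change of the 5 was 0.58, and 0.40 without K82S.

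Of 19 cytotoxic and natural killer receptor genes 7 were placed, and 0 of 7 passed. Nkg7, a granule membrane protein of killer cells, was 7.45, 14.0 and 8.501 FPKM in KO and 6.43, 3.82 and 4.45 in WT. It did not overlap between the groups, and neither did Fcer1g, a signalling chain that mast and myeloid cells also use (7.89, 10.1 and 9.92 against 6.48, 6.79 and 5.65 FPKM). Tyrobp, a signalling chain of natural killer and myeloid cells, overlapped, with 9.13, 15.4 and 11.1 against 11.7, 11.0 and 13.3 FPKM. Ctsw, Klrd1, Cd160 and Srgn overlapped too, so that 2 of 7 had all KO libraries above all WT libraries, beside 5.90% of all rows. The median log2 fold change of the 7 was 0.49. Both cytokine genes placed (of 9) failed the test. The chemokine Ccl4 was 1.57, 2.25 and 1.44 against 0.999, 0.771 and 0.840 FPKM without overlap, but it passed the filter only through the KO libraries, and Xcl1 was 2.21, 1.90 and 0.343 against 0.991, 1.33 and 1.58 FPKM with overlap.

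Of 17 homing and retention genes 4 were placed and 0 of 4 passed. Itgb7, the beta chain that pairs with CD103, was 5.17, 7.79 and 4.81 FPKM in KO and 2.69, 3.92 and 4.15 in WT, without overlap. Itgb2, the beta chain of leukocyte integrins in general, overlapped (3.90, 7.27 and 3.22 against 2.28, 2.97 and 3.50 FPKM), as did Gpr55, a lipid receptor of gut T cells (2.72, 3.56 and 3.30 against 3.11, 1.59 and 3.19 FPKM). Of 13 T cell transcription factors 4 were placed and 0 of 4 passed. Prdm1, which encodes Blimp-1, was 2.56, 3.64 and 2.55 against 1.62, 1.25 and 1.21 FPKM without overlap. Id2, an inhibitor of E proteins, overlapped (16.5, 11.4 and 13.6 against 16.0, 19.7 and 12.3 FPKM). None of the 6 CD4 and regulatory T cell genes was placed.

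Epithelial cells hold and feed these T cells through surface ligands and cytokines. Of 15 such genes, cytokine receptors included, 13 were placed and 0 of 13 passed, with a median log2 fold change of 0.25. In 3 of 13 (Cdh1, Btnl4 and Il2rb) every KO library exceeded every WT library, beside 5.90% of all rows. The log2 fold change was above 0 for 10 of the 13 and below 0 for Il18, Ccl25 and Il15ra. Il18 had the largest change, at -0.87 (limma adjusted p = 0.405), with means of 26.2 against 48.9 FPKM. Ccl25 had -0.44 (limma adjusted p = 0.404), with means of 70.9 against 97.2 FPKM. With all 6 libraries Il18 and Ccl25 overlapped. Without K82S, Ccl25 was wholly lower in KO, while 5 of the 13 genes were wholly higher. Cdh1, the E-cadherin that CD103 binds, was 175, 167 and 158 FPKM in KO and 143, 143 and 133 in WT. The groups did not overlap, yet the log2 fold change was only 0.25 (SE 0.15, limma adjusted p = 0.484). Btnl6 and Btnl1, members of the butyrophilin-like family through which the epithelium maintains its gamma delta T cells, overlapped between the groups, while Btnl4 of the same family did not (51.2, 51.5 and 45.1 against 35.1, 42.5 and 40.5 FPKM). Btnl6 was 235, 234 and 185 against 149, 195 and 184 FPKM, and Btnl1 was 168, 118 and 152 against 119, 124 and 154 FPKM. Il2rb, a receptor chain for IL-15, was 2.80, 3.31 and 2.86 against 2.43, 1.38 and 1.93 FPKM. Il15, the main survival cytokine of these cells, overlapped, at 7.73, 4.94 and 8.80 against 5.96, 8.15 and 5.75 FPKM. Il15 was named for its known role, outside the rule for named genes. Il18, Ccl25 and Il15ra were named outside that rule too, because their log2 fold changes were below 0.

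Markers of other cell types in the mucosa were summed in the same way, and 0 passed the call in any list when all 6 libraries were used. Over all rows, 5.90% had every KO library above every WT library. General epithelial genes (Krt8, Krt20 and Epcam the highest of 8) summed to 7681 to 9297 FPKM in KO and 6233 to 9015 FPKM in WT, with a median log2 fold change of 0.23 and no overlap for 1 of 8. For enterocyte markers (Apoa1, Fabp2 and Apoa4 the highest of 8) the sums were 21384 to 37180 and 30563 to 34871 FPKM, with no gene free of overlap. For goblet and Paneth cell markers (Tff3, Defa24 and Lyz1 the highest of 8) they were 4896 to 11993 and 6396 to 15590 FPKM, with a median log2 fold change of -0.61. Of these, Muc2 and Fcgbp were wholly higher in KO (log2 fold change 1.79 and 0.80). Muc2 was 7.03 FPKM in W89S against 68.3 in W83S and 68.5 in W90S. Its 95% interval was -0.25 to 3.82 (limma adjusted p = 0.408). Without K82S, 5 of the 8 (Tff3, Spink4, Lyz1, Mmp7 and Defa24) were wholly lower in KO, and the median was -1.07. In that fit 4121 of all 12764 rows were wholly lower in KO. For macrophage and dendritic cell markers (Lyz2, C1qa and C1qb the highest of 7 placed) the sums were 65.0 to 199 and 88.4 to 244 FPKM. Lyz2 had the widest spread of the 7, with 17.5, 122 and 27.0 FPKM in KO and 41.0, 184 and 123 in WT. The log2 fold change was above 0 for 5 of the 7, and Csf1r and Itgax were wholly higher in KO. Plasma cell markers (Igha, Jchain and Mzb1 the highest of 4 placed) summed to 668 to 1168 FPKM in KO and 575 to 674 FPKM in WT. Of these, Igha alone did not overlap and was higher in KO. Mast cell (Mcpt1 and Kit), lymphoid follicle (Bcl6) and smooth muscle markers (Acta2, Tagln and Des) overlapped in every gene placed. Gastric markers (Tff1, Gkn1 and Psca the highest) had their high sum, given above, in W83S, the WT library that was the highest of its group for 8 of the 9 T cell genes.

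The MHC class II genes also separated the groups. All 6 MHC class II genes placed, with Cd74, H2-Ab1 and H2-Aa the highest, had every KO library above every WT library, beside 5.90% of all rows. Their sums were 2976 to 3549 FPKM in KO and 1080 to 1536 FPKM in WT, and the median log2 fold change of 1.30 was above that of the 9 T cell genes. The sum in K82S was 3549 FPKM against 3164 and 2976 FPKM in the other KO libraries. Cd74 has the largest part in this sum, and for H2-Aa alone K82S was 1.93 times the mean of the other KO libraries. None passed the limma call with 6 libraries, and 5 of 6 did without K82S, where 0.400% of all rows were called higher.

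**Figure D5:**
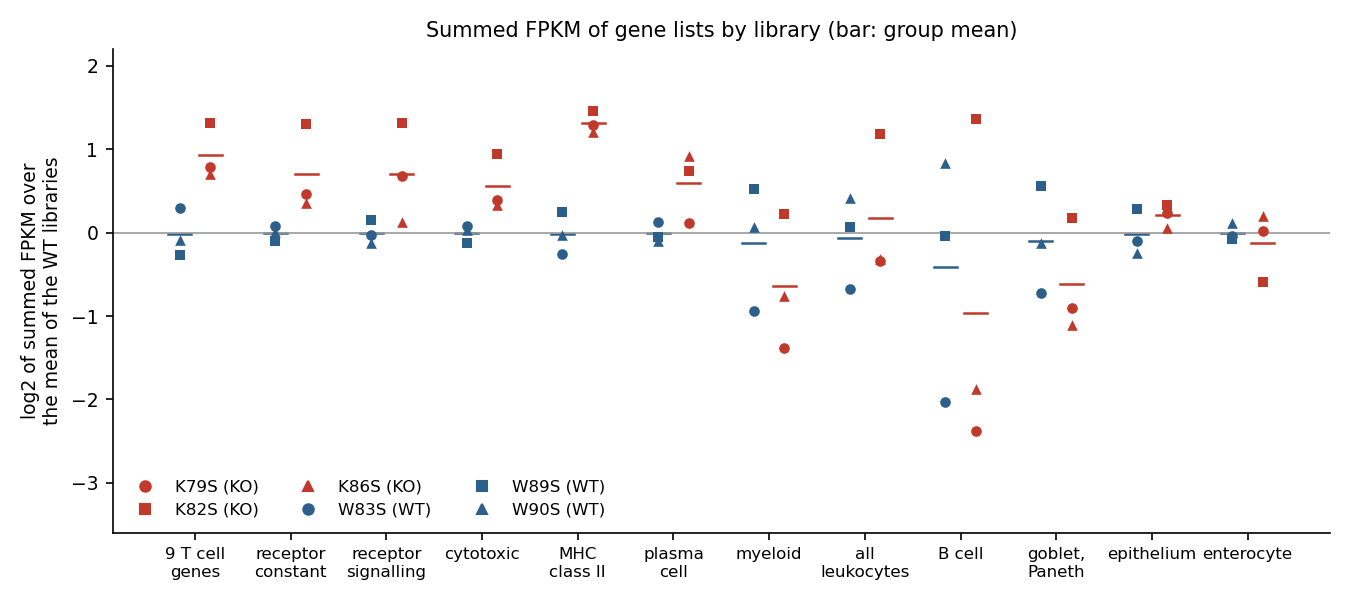
Log2 of the summed FPKM of each gene list in each KO (red) and WT (blue) library over the mean of the WT libraries, with bars at the group means of these log2 values. The groups are apart for the 9 T cell genes, the receptor constant genes, the cytotoxic genes and MHC class II, and overlap for the receptor signalling, plasma cell, leukocyte, B cell, myeloid, goblet and Paneth, epithelial and enterocyte lists.

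The mean profile of the 9 genes over the 6 libraries, as log2(FPKM + 1) centred on each gene's own mean, was 0.297, 0.746 and 0.183 in KO and -0.179, -0.573 and -0.474 in WT. Among 12040 other named rows the profiles nearest to it, by root mean square difference over the 6 libraries, were those of Prdm1 (0.0873), Tcrg-C4 (0.123), Jaml (0.134), Nkg7 (0.136), Tcrg-C2 (0.140), Lag3 (0.144), Ccl4 (0.156) and Apol7e (0.162). Jaml encodes an adhesion molecule of epithelial gamma delta T cells, and Lag3 a checkpoint receptor of activated T cells. Jaml was 2.004, 3.26 and 2.36 FPKM in KO and 1.43, 0.946 and 1.32 in WT, and Lag3 was 3.11, 3.98 and 2.57 against 1.76, 1.73 and 1.36 FPKM. Of the 9 genes themselves, 7 lay within the distance of Apol7e from their own mean profile. Each of the 9 enters that mean, so this count is no independent sign of a shared profile. Gzmb (0.238) and Ccl5 (0.232) lay farther out. The nearness of Ccl4 is no support, since it passed the filter only through the KO libraries.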

How the data were processed

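Total RNA of 6 mucosal samples, 1 per mouse, was sequenced by the authors as 50 bp single-end reads, trimmed with trim-galore, mapped to mm10 with HISAT2 and quantified with StringTie. The deposited values are FPKM per gene. Versions, annotation and strand handling are not given in the sources used here, and 0 columns could not be mapped to a sample. Identifiers were put back on their rows by rank (identifiers by the K79S value beside them, rows by W83S, with stated offsets per band), which placed 12345 of 22680 identifiers with a GENCODE M21 symbol and left out 52 at ties. As a check, values with at most 6 decimals, which mark genes of 1 transcript, were found for 99.9% of 3624 single-transcript and 5.7% of 8721 other placed genes. As deposited, the shares were 33.7% and 34.1%.

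The filter dropped every row that was below 1 FPKM in over 4 of the 6 libraries. The fit used limma 3.58.1 (lmFit, eBayes with trend) in R 4.3.3 on log2(FPKM + 1), with no covariate, and p-values were adjusted by Benjamini-Hochberg over all rows. Ratios were tested by an exact two-sided permutation test over libraries in Python 3.11.15 with scipy 1.17.1. The fit was tested on simulated data. A count model was not used, since FPKM are not counts. FPKM hold no read counts, so precision rests on 3 mice per group.

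The members and the 21 other lists were chosen with earlier results of these data known. Named genes were all 10 members, the 3 most abundant placed genes of each other list, list genes past the call, the 8 nearest profiles and Enpp7. A further gene that this rule names is not reported here. Other genes appear where a count of 5 or fewer needed their names or where stated, and were chosen after their values were seen. Alternatives were other pseudocounts (0.1 and 0.01), filters (none and 0.5), TPM, upper quartile scaling, no trend, array weights, leaving out each library, and scalings added after the data were seen.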

Additional observations from a re-analysis of the deposited data

How the results depend on the processing

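The number of rows past both thresholds was 1 with all 6 libraries. It was 0 with a pseudocount of 0.1 or 0.01 (limma, with 1636 and 1619 rows at an unadjusted p under 0.05), 2 with array weights, and between 0 and 1184 when each library was left out, the highest without K82S. With scaling to leukocyte genes, added after the data were seen, it was 20, and 241 with that scaling and without K82S. All 162 fold changes of the 9 genes under 18 alternatives were positive. Cd3e and Itgae passed without K82S, and no other alternative made any of the 9 pass. Their median log2 fold change was 0.59 to 1.08 over the alternatives and 0.70 to 0.98 over single libraries left out. TPM moved the median of all rows from -0.06 to 0.08 and turned the split of non-overlapping rows from 772 higher and 1483 lower to 2095 and 881. The scalings to epithelial genes (279 and 2916) and leukocyte genes (50 and 2334) moved it the other way. All 6 ratios of members to CD3 kept their sign, though pseudocounts of 0.1 and 0.01 lowered 5 of them, Gzma from 0.248 to 0.086 and 0.063. The ratios of receptor constant genes to CD3 are given with 1 added only. No paired analysis was possible because the labels do not say which KO and WT mice were pairs. The ratio of Cd8b1 to Cd8a was not run, since Cd8b1 could not be placed.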
